A study of Mus musculus with 15 samples.

Results

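Immunoglobulin transcripts in mouse liver were followed across 15 bulk RNA sequencing libraries in 5 groups of 3. The genes were every immunoglobulin constant, variable (V), joining (J) or diversity gene by the biotype column of the deposited tables, plus Jchain, with at least 10 counts summed over the libraries. This gave 96 of the 26839 genes listed, chosen by their total counts: 11 constant genes, 79 V segments, 5 J segments and Jchain. Another 72 listed genes of these classes fell below the minimum, and no diversity gene was listed. The selection used the total over all libraries and no contrast between groups, but a gene with few counts that reached 10 through a single group had to be high there. At the threshold, 10 genes had 10 or 11 counts, for example Ighv1-76 with 11, and 17 genes had 8 or 9 and stayed out, for example Ighj2 with 9.

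All mice were male C57BL/6J. A chow group received an adeno-associated virus of serotype 8 (AAV8) with green fluorescent protein (GFP) behind the TBG promoter, which is active in hepatocytes, and ate standard chow with plain water for 16 weeks. The other groups were fed the FPC diet, a model of fatty liver inflammation (non-alcoholic steatohepatitis, NASH), and drank sugar water over the same 16 weeks. Among them, NASH GFP livers carried the same GFP vector, Activin A livers an AAV8-TBG vector for Activin A (a secreted ligand of the TGF-beta family), scramble livers an AAV8 with a scrambled short hairpin RNA behind the H1 promoter, and Gpnmb hairpin livers the same kind of vector with a hairpin against Gpnmb, which encodes a transmembrane glycoprotein of macrophages. The labels do not state that each library is a different animal, and the spread behind each p-value may therefore be technical. Gpnmb stood at 31.8 ± 5.18 CPM (counts scaled to a common library total, SD, n = 3) in scramble and 2.01 ± 1.12 in Gpnmb hairpin livers, and Inhba, which encodes the subunit of Activin A, at 8.0 ± 0.136 in NASH GFP and 25.0 ± 0.875 in Activin A livers. Both follow the labels. Gpnmb was also low without its hairpin, with 0.292 ± 0.172 CPM on chow and 4.01 ± 1.45 CPM in Activin A livers.

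B cells and the plasma cells they give rise to make immunoglobulins. Each cell joins a V segment to J (and, in the heavy chain, diversity) segments, and transcribes the product together with a constant gene, and the heavy constant gene sets the class: Ighm for IgM, Ighd for IgD, Ighg genes for the IgG subclasses and Igha for IgA. Naive B cells carry both IgM and IgD, plasma cells secrete antibody, and the J chain joins units of secreted IgM and IgA into polymers.

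In the deposited tables (build GRCm38) the heavy chain locus of chromosome 12 held 43 of the genes, the kappa light chain locus of chromosome 6 held 46, the lambda light chain locus of chromosome 16 held 6, and Jchain lay on chromosome 5 (88519809 to 88527891). The coding ends of 7 V segments, taken from GENCODE M21 transcripts of GRCm38, are printed. Igkv3-2, Igkv3-5, Ighv1-53 and Ighv1-22 led a library or a chain in it. Igkv14-126 had counts in every NASH GFP and Activin A library and none in scramble or Gpnmb hairpin libraries. Igkv12-46 separated the Activin A libraries, as did Ighv1-22, of which Ighv1-26 is a near copy. Each printed end is the last 75 coding bases on the gene's own strand, 5′ to 3′, and the capitals mark the last in-frame cysteine codon. The bases printed after that codon still belong to the V segment.
Igkv3-2: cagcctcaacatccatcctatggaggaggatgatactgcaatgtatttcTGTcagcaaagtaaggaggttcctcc
Igkv3-5: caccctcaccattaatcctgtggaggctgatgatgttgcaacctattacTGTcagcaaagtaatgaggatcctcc
Igkv14-126: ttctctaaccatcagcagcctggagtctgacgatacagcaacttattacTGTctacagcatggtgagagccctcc
Igkv12-46: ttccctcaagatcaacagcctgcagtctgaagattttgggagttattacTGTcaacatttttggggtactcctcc
Ighv1-53: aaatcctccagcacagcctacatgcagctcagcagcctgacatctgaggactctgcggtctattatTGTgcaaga
Ighv1-26: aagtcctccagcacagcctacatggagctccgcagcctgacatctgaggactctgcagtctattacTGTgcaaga
Ighv1-22: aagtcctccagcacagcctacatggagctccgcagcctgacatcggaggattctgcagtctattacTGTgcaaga

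The kappa genes lie at chr6:70698449-70699067 (Igkv3-2, plus strand), chr6:70663275-70663895 (Igkv3-5, plus), chr6:67896172-67896642 (Igkv14-126, plus) and chr6:69764523-69765022 (Igkv12-46, minus). The heavy chain genes lie on the minus strand at chr12:115158403-115158835 (Ighv1-53), chr12:114788372-114788805 (Ighv1-26) and chr12:114746273-114746706 (Ighv1-22). Ighv1-26 and Ighv1-22 differ at 2 of these 75 bases and are 96.6% identical over their coding sequence, whereas Igkv3-2 and Igkv3-5 differ at 14 and are 91.1% identical. All 79 V segments matched GENCODE M21 by gene identifier, with the same start and end. Of these, 42 are at least 95% identical in coding sequence to another V gene of the same chain, and 7 at least 98%. The sources used here do not give how reads shared by such copies were counted, so a value of a single V segment may include reads of its near copies.

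Immunoglobulin transcripts were scarce, with 329 to 3562 counts per library out of 15276879 to 23467867. The level summed over the 96 genes, in CPM scaled with TMM factors over all libraries, was 37.6 ± 4.39 (SD, n = 3) in chow GFP livers, 78.2 ± 35.4 in NASH GFP livers, 197 ± 8.49 in Activin A livers, 21.8 ± 0.570 in scramble livers and 20.3 ± 2.22 in Gpnmb hairpin livers. The Activin A libraries (188, 204 and 199 CPM) lay above every other library. The NASH GFP libraries were far apart, at 79.7, 42.0 and 113 CPM, the second close to the highest chow library at 41.1 CPM. All scramble and Gpnmb hairpin libraries (18.3 to 22.7 CPM) lay below all chow libraries, although they came from NASH diet livers. In bulk tissue, fewer cells of a type and less RNA per cell cannot be told apart.

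**Figure D1:**
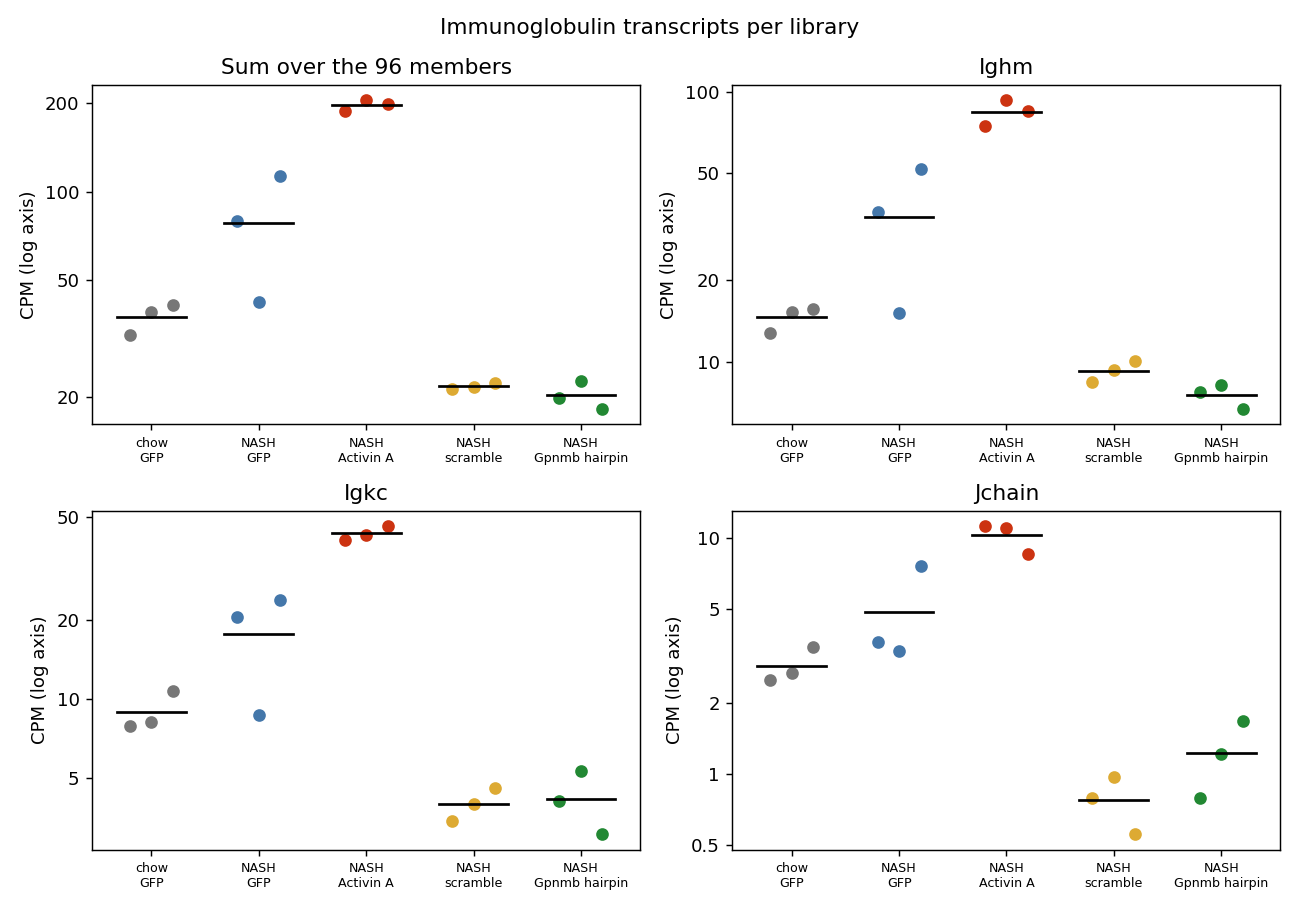
Levels in CPM (log axis) of the sum over the 96 genes and of Ighm, Igkc and Jchain, 1 point per library, libraries 1 to 3 from left to right within a group, with the group mean as a bar. Activin A libraries lie highest in every panel, and the scramble and Gpnmb hairpin libraries lie lowest, for Ighm between 6.71 and 10.1 CPM.

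Across the 5 groups, 17 of the 96 genes passed the filter on low counts and 14 of them differed between groups by edgeR's quasi-likelihood F test at an adjusted p under 0.05, against 44.9% of all 15665 genes tested. Of the 17, 9 would not have passed the filter without the Activin A libraries, so that the count is partly set by the filter. The smallest values belonged to Igkc (edgeR adjusted p = 1.44e-07), Ighm (edgeR adjusted p = 1.47e-07), Jchain (edgeR adjusted p = 1.22e-06) and Ighg1 (edgeR adjusted p = 1.83e-06). The others that differed were Ighg2b, Ighg2c, Ighg3, Igkv3-2, Igkv3-5, Igkv5-39, Igkv14-126, Ighv1-26, Ighv1-53 and Iglv1. The IgD gene Ighd (edgeR adjusted p = 0.247), the IgA gene Igha (0.132) and Igkv1-135 (0.0775) did not pass.

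Ighm (chromosome 12, 113418558 to 113422730), the constant gene of IgM, was the most abundant of the 96 in counts. It had 211, 205 and 227 counts in chow GFP libraries, 811, 317 and 961 in NASH GFP libraries, 1373, 1619 and 1400 in Activin A libraries, 191, 211 and 255 in scramble libraries and 127, 156 and 124 in Gpnmb hairpin libraries. As levels these were 14.6 ± 1.54 CPM (SD, n = 3), 34.2 ± 18.3, 84.3 ± 9.01, 9.28 ± 0.837 and 7.54 ± 0.762 CPM. The second NASH GFP library, at 15.2 CPM, lay within the chow range of 12.8 to 15.7 CPM, while both others were higher.

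Igkc (chromosome 6, 70726435 to 70726966), the constant gene of kappa light chains, followed the same order of groups except that Gpnmb hairpin stood just above scramble. Its counts were 130, 109 and 156 in chow GFP libraries, 466, 181 and 446 in NASH GFP libraries, 747, 741 and 756 in Activin A libraries, 77, 90 and 115 in scramble libraries and 67, 101 and 56 in Gpnmb hairpin libraries. Per kilobase of the deposited gene length, the level of Igkc exceeded that of Ighm in each group, for example 81.0 against 44.7 CPM per kb in Activin A livers. The ratio of Ighm to Igkc per kilobase ranged from 0.410 to 0.70 over the 15 libraries, while Ighm counts ranged from 124 to 1619 and Igkc counts from 56 to 756. The listed gene Gm30211, which overlaps Igkc, had at most 5 counts in a library.

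Jchain had 41, 36 and 50 counts in chow GFP libraries, 82, 69 and 141 in NASH GFP libraries, 206, 193 and 141 in Activin A libraries, 18, 22 and 14 in scramble libraries and 13, 23 and 31 in Gpnmb hairpin libraries. The level of Jchain was 10.3 ± 1.5 CPM (SD, n = 3) in Activin A livers and 0.773 ± 0.209 CPM in scramble livers. Its 6 libraries of the hairpin vectors lay below all 9 libraries of the TBG vectors, chow included.

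Heavy chain classes did not share 1 pattern. Ighg1, the constant gene of the IgG1 subclass (chromosome 12, 113325240 to 113330523), had 190, 38 and 93 counts in the Activin A libraries. It had 8, 6 and 2 in NASH GFP libraries, 4, 6 and 4 in chow GFP libraries, 4, 1 and 4 in scramble libraries and none in the Gpnmb hairpin libraries. Every Activin A library thus lay above all 12 others, from 2.18 to 10.4 CPM. Of heavy constant counts, Ighg1 made up 10.3% (Wilson 95% interval 8.99% to 11.8%), 2.03% (1.48% to 2.78%) and 5.34% (4.38% to 6.50%) in the Activin A libraries. Elsewhere its share was at most 2.18%, and the 201 to 240 heavy constant counts of a Gpnmb hairpin library allow a share of up to 1.49% to 1.25% by a limit of 3 counts, with Wilson upper bounds of 1.58% to 1.88%. These intervals and limits cover counting error only, as PCR copies cannot be told from separate molecules.

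Ighg3, for IgG3, had 12, 10 and 13 counts in NASH GFP libraries and 46, 22 and 33 in Activin A libraries, against 0 to 3 in each of the 9 other libraries. The Ighg2b and Ighg2c genes, for the other IgG subclasses of this strain, were also highest on average in Activin A livers, at 2.98 ± 0.780 and 5.08 ± 2.85 CPM (SD, n = 3). For Ighg2c the groups overlapped: the second Activin A library had 32 counts, and the second chow library had 45.

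Between NASH GFP, Activin A and scramble livers, Ighd behaved unlike Ighm. From chow GFP to NASH GFP livers their log2 fold changes were close, at 1.16 and 1.27. Ighd had 12, 7 and 22 counts in chow GFP libraries, 62, 31 and 33 in NASH GFP libraries, 18, 45 and 42 in Activin A libraries, 61, 37 and 42 in scramble libraries and 29, 10 and 32 in Gpnmb hairpin libraries. The level was 2.00 ± 0.654 CPM (SD, n = 3) in NASH GFP, 2.04 ± 0.915 in Activin A and 2.00 ± 0.603 in scramble livers, and these groups overlapped. It was 0.923 ± 0.525 CPM in chow GFP and 1.34 ± 0.703 in Gpnmb hairpin livers. The ratio of Ighm to Ighd counts was 33.3 to 76.3 in the Activin A libraries, 10.2 to 29.1 in NASH GFP libraries, 10.3 to 29.3 in chow GFP libraries, 3.13 to 6.07 in scramble libraries and 3.88 to 15.6 in Gpnmb hairpin libraries. Ighd accordingly took 0.976% to 2.41% of heavy constant counts in Activin A libraries and 11.6% to 20.3% in scramble libraries, ranges that did not overlap. Igha, for IgA, ran from 16 to 67 counts in Activin A libraries and from 21 to 40 in Gpnmb hairpin libraries. Its levels overlapped in these groups, at 2.20 ± 1.51 and 1.89 ± 0.671 CPM (SD, n = 3). Its share of heavy constant counts was 2.08% ± 1.38 and 15.5% ± 4.56, of 5456 and 648 such counts in all. The mean share was 2.72% in chow GFP, 4.32% in NASH GFP and 8.65% in scramble livers.

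**Figure D2:**
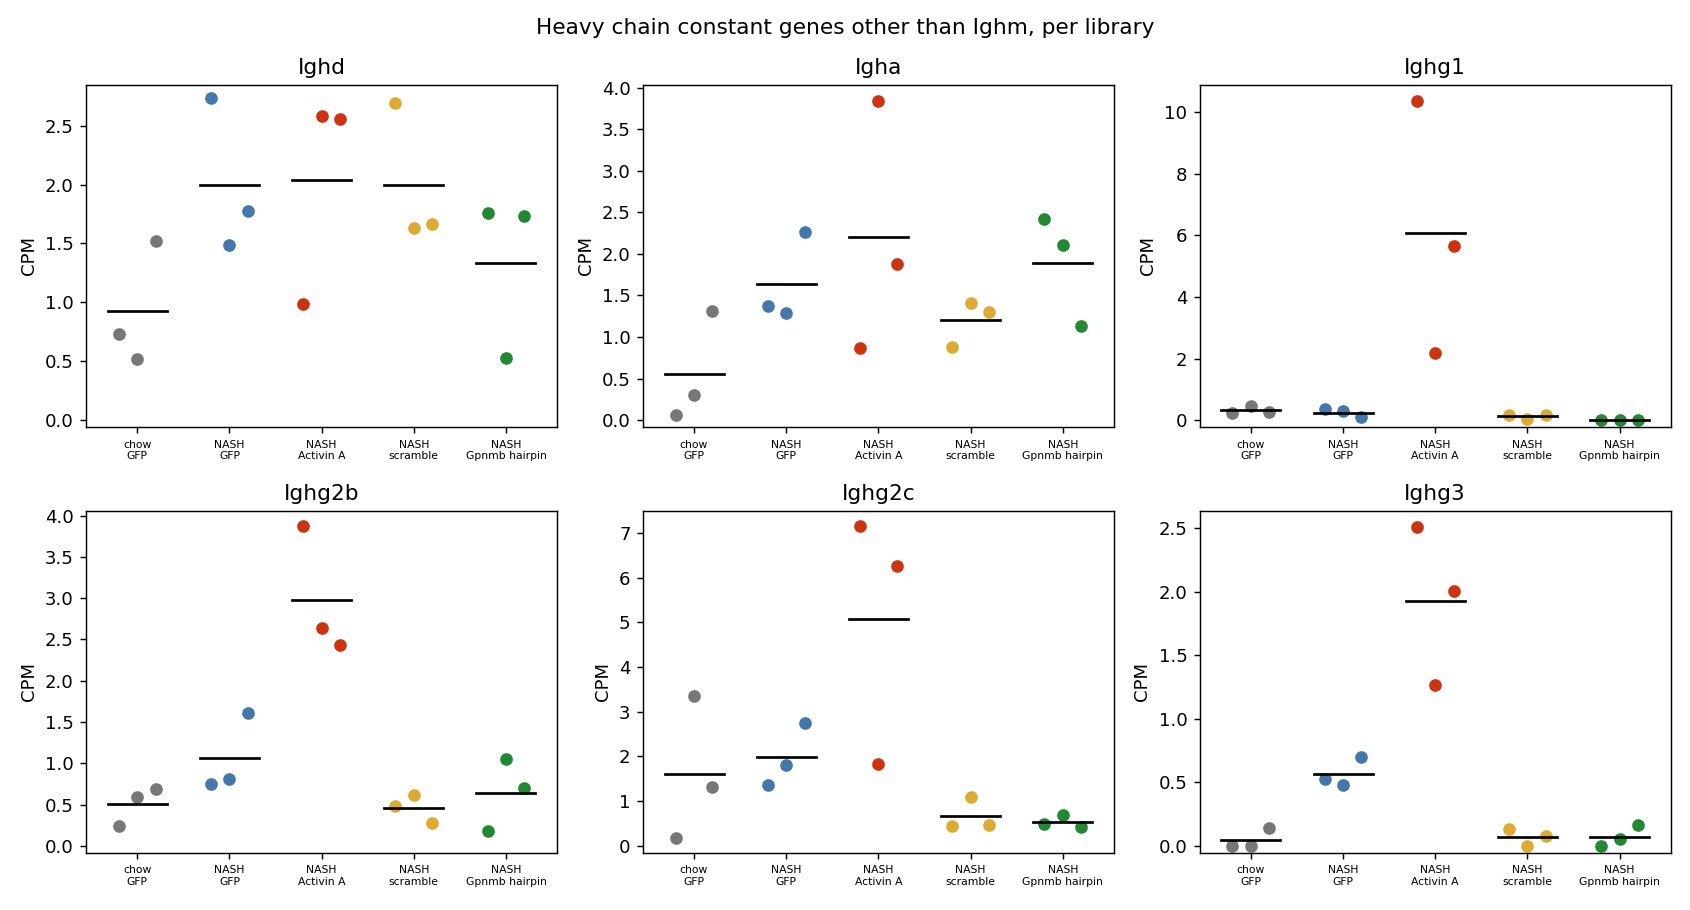
Levels in CPM of the heavy chain constant genes other than Ighm, 1 point per library, libraries 1 to 3 from left to right, with the group mean as a bar. Ighg1 is high in the Activin A libraries alone, whereas Ighd has means of 2.00, 2.04 and 2.00 CPM in NASH GFP, Activin A and scramble livers.

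Kappa dominated the light chains. Igkc made up 94.8% ± 2.22 (SD, n = 3) of light chain constant counts in chow GFP, 94.9% ± 0.219 in NASH GFP, 95.7% ± 0.952 in Activin A, 89.6% ± 2.31 in scramble and 93.8% ± 5.65 in Gpnmb hairpin livers. The lambda constant genes Iglc1, Iglc2 and Iglc3 together had 15 to 100 counts per group. Iglc1 was highest in Activin A livers, at 0.902 ± 0.385 CPM (SD, n = 3), and Iglc2 in NASH GFP livers, at 0.648 ± 0.374 CPM. None of these 3 genes passed the filter on low counts in any comparison.

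The diet comparison set NASH GFP against chow GFP livers and asked what the NASH diet did under the same vector. Of the 96 genes 8 could be tested. Ighm rose, by 1.27 ± 0.35 on the log2 scale (SE, edgeR adjusted p = 0.0332), so 1 of 8 was called higher against 11.2% of all 14388 genes, and 0 were called lower against 5.82%. With library size alone, all genes split into 2671 higher and 405 lower, in place of 1607 and 838. Igkc had a log2 fold change of 1.03 ± 0.33 (edgeR adjusted p = 0.0554), Jchain of 0.78 ± 0.36 (edgeR adjusted p = 0.180), Ighd of 1.16 ± 0.49 (edgeR adjusted p = 0.141), Igha of 1.61 ± 0.74 (edgeR adjusted p = 0.178) and Igkv3-2 of 1.88 ± 0.84 (edgeR adjusted p = 0.165). Of the 8, 5 would not have passed the filter without the NASH GFP libraries. The Ighm call was lost without the first or the third NASH GFP library or without any 1 chow library, with limma voom and with the replicate block. Its adjusted p ranged from 0.000313 to 0.119 over 12 alternatives.

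Activin A livers were compared with NASH GFP livers to ask what hepatocyte expression of Activin A did in NASH. Of 16 genes tested, Ighg1 rose by 4.52 ± 0.64 on the log2 scale (SE, edgeR adjusted p = 0.00482), Ighg3 by 1.74 ± 0.41 (edgeR adjusted p = 0.0388) and Igkc by 1.27 ± 0.29 (edgeR adjusted p = 0.0342). These 3 of 16 called higher stood against 1.66% of all 14598 genes, and 0 of 16 were called lower against 3.86%. Ighm had a log2 fold change of 1.29 ± 0.33 (edgeR adjusted p = 0.0544), Ighg2b of 1.49 ± 0.39 (0.0554), Jchain of 1.09 ± 0.30 (0.0694) and the lambda segment Iglv1 of 1.76 ± 0.46 (0.0582), just outside the threshold. For 11 of the 16, every Activin A library lay above every NASH GFP library, as it did for 13.5% of all genes tested. Igha (0.41 ± 0.50) and Ighd (0.00 ± 0.42) were among the 5 that overlapped. Of the 16, 8 would not have passed the filter without the Activin A libraries, Ighg1 and Ighg3 among them, and had to be high there, so nothing is read from either count.

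The Activin A calls of Igkc and Ighg3 depended on single libraries and held under 8 and 4 of 12 alternatives. Ighg1 was called under 11 of 12 alternatives, the exception being limma voom (adjusted p = 0.0566). Without the third Activin A library Ighg1 alone was called, and without the third NASH GFP library, which had the most immunoglobulin counts of its group, 12 genes were called, Ighm and Jchain among them. DESeq2 called 9 genes.

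The Gpnmb hairpin was compared with the scrambled hairpin, both on the NASH diet, to ask what lowering Gpnmb did. No gene of the 7 tested was called in either direction, against 12.2% called higher and 12.0% lower among all 14845 genes (1813 and 1788, or 1006 and 2464 with library size alone). None had an unadjusted p under 0.05, and DESeq2 and limma voom also called 0. Ighm was 7.54 ± 0.762 CPM against 9.28 ± 0.837 (SD, n = 3), a log2 difference of -0.28 ± 0.14 (edgeR adjusted p = 0.189). Its libraries lay close together, at 6.71 to 8.21 CPM against 8.43 to 10.1 CPM. Igkc differed by 0.08 ± 0.24, Jchain by 0.70 ± 0.41 and Igha by 0.67 ± 0.37 on the log2 scale (SE). The 96 genes had 1098 and 1537 counts over the 3 libraries of these groups, and no V segment passed the filter.

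The scramble and NASH GFP groups are the controls of the hairpin and of the TBG vectors on the same diet. Of 9 genes tested, Jchain fell by 2.66 ± 0.40 on the log2 scale (SE, edgeR adjusted p = 0.0404), Igkc by 2.17 ± 0.34 (edgeR adjusted p = 0.0427) and Igkv3-2 by 4.05 ± 0.61 (edgeR adjusted p = 0.0404) in scramble livers. So 3 of 9 were called lower, against 0.192% of all 15103 genes (29 genes), and 0 of 9 higher, against 0.132%. Of the 9, 4 would not have passed the filter without the NASH GFP libraries, Igkv3-2 among them, so nothing is read from the count. Ighm had a log2 fold change of -1.90 ± 0.36 (edgeR adjusted p = 0.0660), and Ighd of -0.03 ± 0.34 (edgeR adjusted p = 0.970). These groups differ in promoter and cargo and come from separate deposited tables, so vector, cohort and processing cannot be told apart. All 3 calls were lost when any 1 scramble library was left out, with library size alone and with limma voom, and without the first NASH GFP library Jchain alone was called. The diet, Activin A and control comparisons share the NASH GFP libraries, so their values are not independent.

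**Figure D3:**
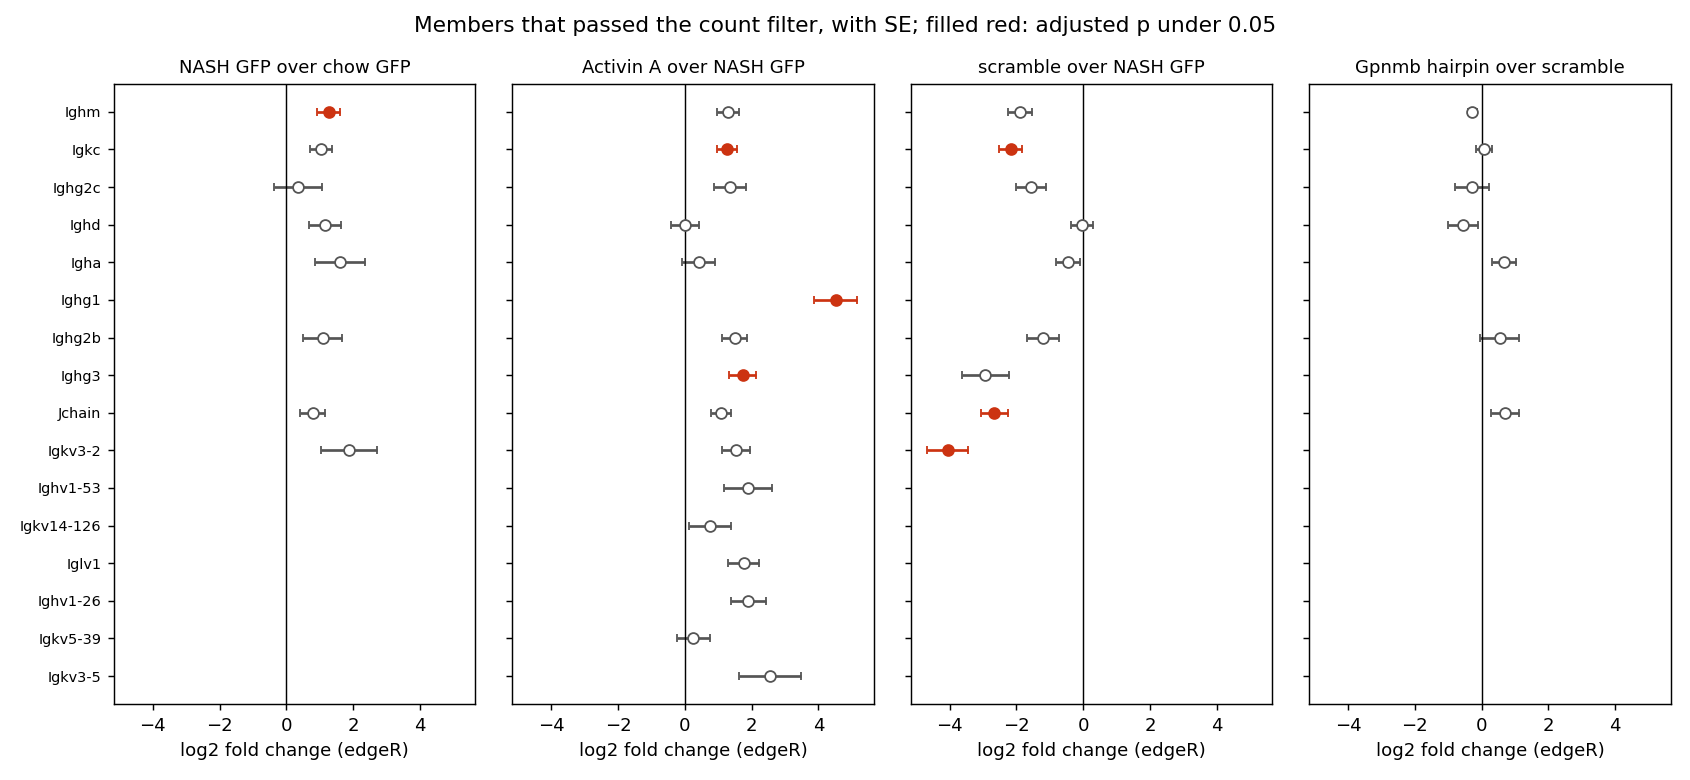
Log2 fold changes with SE of the genes that passed the count filter in each comparison, with filled red points where the edgeR adjusted p is under 0.05. Ighd lies at 0.00 and -0.03 in the Activin A and scramble comparisons, where Ighm lies at 1.29 and -1.90.

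V segments were most abundant in Activin A livers and differed between single libraries. Their counts were 75 to 119 per chow GFP library, 166 to 347 per NASH GFP library, 586 to 701 per Activin A library and 39 to 69 per scramble or Gpnmb hairpin library. Of the 79 V segments, 61 had a count in chow GFP, 70 in NASH GFP, 77 in Activin A, 49 in scramble and 35 in Gpnmb hairpin livers. The 79 were kept by their total counts, to which Activin A livers gave 1894 and each other group 135 to 768. These numbers therefore follow the selection and the depth, and nothing is read from them. Thinned to 39 V counts, the expected number of segments was 18.6 to 22.3 in the Activin A libraries, 18.5 to 21.2 in NASH GFP libraries, 21.5 to 22.8 in chow GFP libraries, 20.8 to 25.6 in scramble libraries and 13.8 to 20.3 in Gpnmb hairpin libraries. At equal depth the Activin A range thus overlapped the chow range, though thinning leaves the selection of the 79 in place. In any library, 4 to 9 segments held 50% of the V counts.

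Igkv3-2 (chromosome 6, 70698449 to 70699067) was the leading V segment, its sequence given above. It had 25, 1 and 2 counts in chow GFP libraries, 58, 18 and 58 in NASH GFP libraries, 82, 145 and 102 in Activin A libraries, 2, 4 and 3 in scramble libraries and 0, 1 and 2 in Gpnmb hairpin libraries. It gave 25 of 119 V counts in the first chow library (Wilson 95% interval 14.7% to 29.2%) and 1 of 94 in the second (0.188% to 5.78%). In the Activin A libraries its share was 13.5%, 20.7% and 17.4%. It led the V segments in all 3 Activin A libraries, in 2 NASH GFP libraries, in the first chow library and, with 4 counts, in the second scramble library.

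Igkv14-126 had 48, 15 and 4 counts in NASH GFP libraries, 43, 23 and 27 in Activin A libraries, 1, 1 and 0 in chow GFP libraries and 0 in all 6 libraries of the hairpin vectors. Taking 3 counts in the whole group as the floor for 0, it was at least 25.4-fold lower in scramble than in NASH GFP livers, or at least 11.3-fold without the first NASH GFP library. Ighv1-53, the leading heavy chain segment, had 58, 54 and 56 counts in the Activin A libraries and 12, 1 and 38 in the NASH GFP libraries, and at most 4 in any other library. Igkv10-96, also among the 10 most abundant segments, had 11, 7 and 3 counts in NASH GFP libraries, 5, 32 and 18 in Activin A libraries and at most 3 in any other. Igkv1-135 led in the second chow and first scramble libraries, with 9 and 7 counts, Igkv6-20 in the third chow library, with 8, and Igkv5-39 in the second NASH GFP library, with 19. In Gpnmb hairpin livers the lambda segment Iglv1, with 8, 8 and 2 counts, led in the first and second libraries, and Igkv14-111 with 8 counts led in the third.

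**Figure D4:**
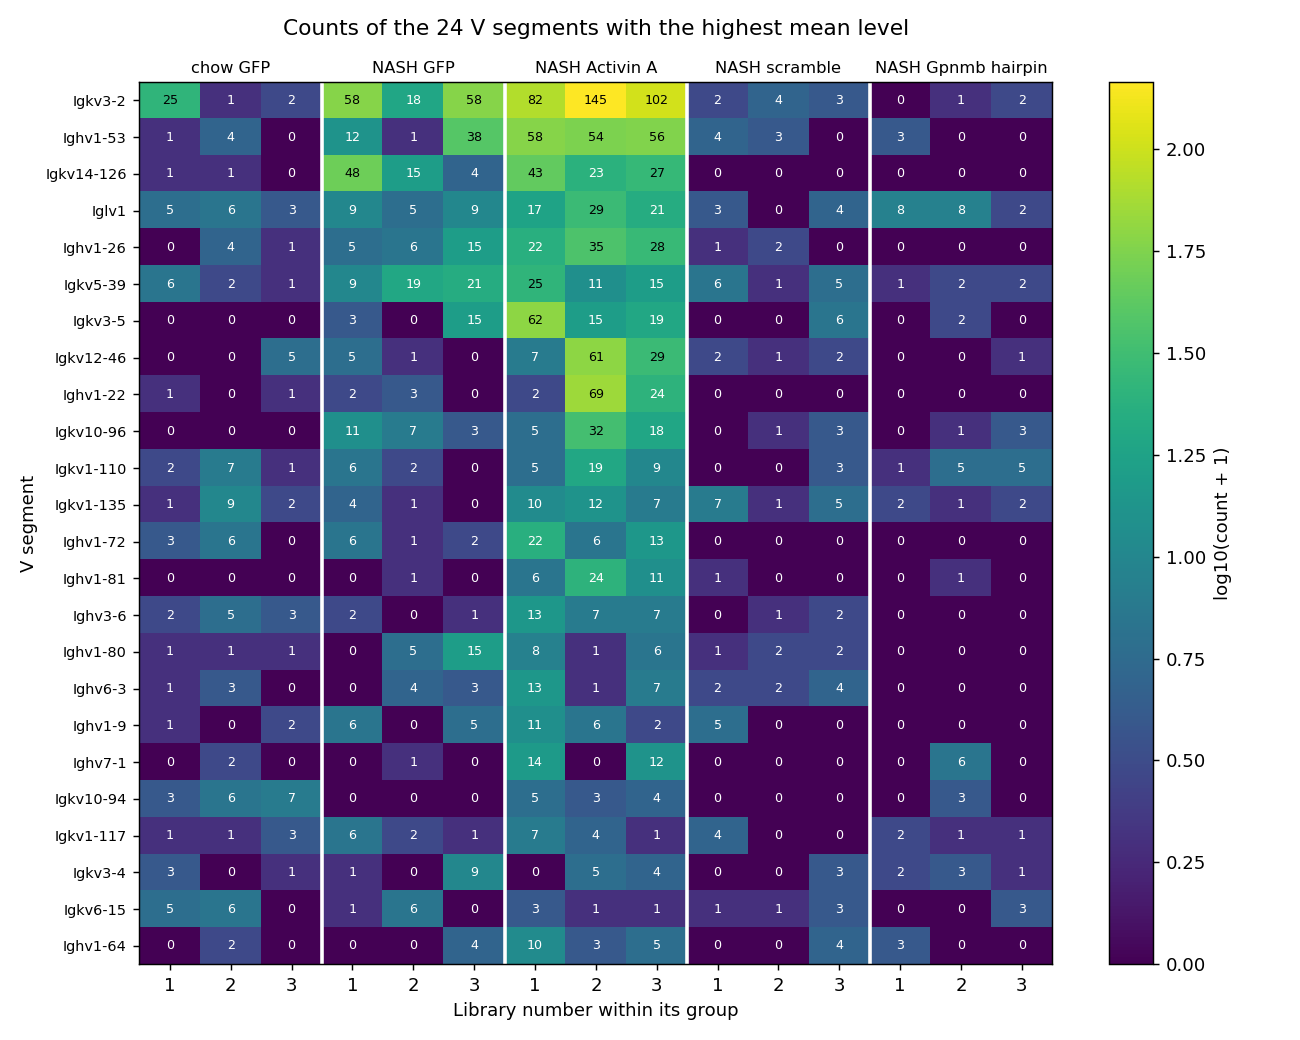
Counts of the 24 V segments with the highest mean level (rows) in each library (columns, grouped), with colour for log10(count + 1). Igkv3-2 reaches 145 counts in the second Activin A library, and Ighv1-22 differs within that group, with 2, 69 and 24 counts.

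Within the Activin A group, the V segments separated the first library from the second, and the third held segments of both. Ighv1-22 had 2, 69 and 24 counts, Igkv12-46 had 7, 61 and 29, Igkv3-5 had 62, 15 and 19, Ighv7-1 had 14, 0 and 12, and Igkv3-9 had 23, 0 and 5. The printed ends of Ighv1-22 and Ighv1-26 are nearly alike, yet Ighv1-26 had 22, 35 and 28 counts. Of 9 segments with at least 5 counts in the first library and at most 1 in the second, 8 were detected in the third, and of 10 with the reverse pattern, 9. Such detection was not particular to the third library. By the same rule, both directions together, the first Activin A library held 9 of 10 and the second 3 of 6. The NASH GFP libraries held 8 of 13, 8 of 14 and 7 of 9. Among the 42 V segments with at least 10 counts in the group, the third library had the middle level for 30, or 71.4%, and each other library for 6. In the NASH GFP group, with 20 such segments, libraries were in the middle for 8, 8 and 2. This comparison was chosen after the values were seen, and whether the third Activin A library shares material with the others was not tested. Without it, Ighg1 alone was called, as stated above.

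The sum over the B cell markers did not follow the order of the immunoglobulin genes, and single markers differed in this. The 15 markers summed to 10.9 ± 1.78 CPM (SD, n = 3) in chow GFP livers, 16.1 to 24.9 in NASH GFP libraries, 16.0 to 27.1 in Activin A libraries, 16.3 to 16.9 in scramble libraries and 8.10 to 13.5 in Gpnmb hairpin libraries. NASH GFP and Activin A libraries overlapped in this sum, and none of the 14 markers tested was called between them (0 had an unadjusted p under 0.05), with a median log2 fold change of 0.15. Cd79a, a subunit of the B cell receptor, stood at 1.44 ± 0.456 CPM in NASH GFP and 2.07 ± 0.696 in Activin A livers (SD, n = 3). Ms4a1 and Pax5 had the group order of the immunoglobulin sum. Their means were 1.13 and 0.970 CPM in NASH GFP, 1.53 and 1.48 in Activin A and 0.380 and 0.489 in scramble livers. Cd37 and Bank1, which weigh more in the marker sum, had another order. Their means were 4.33 and 2.34 CPM in NASH GFP, 3.77 and 1.89 in Activin A and 4.48 and 2.76 in scramble livers. On the diet, 2 of 11 tested markers rose: Cd22, an inhibitory lectin of B cells, by 1.63 ± 0.38 (SE, edgeR adjusted p = 0.0160) and the tetraspanin Cd37 by 1.37 ± 0.29 (edgeR adjusted p = 0.0103). Of all genes tested, 11.2% were called higher there, so nothing is read from the count. Between scramble and NASH GFP livers 0 of 13 were called, with a median of -0.56 and 3 at an unadjusted p under 0.05. Under the Gpnmb hairpin 1 of 9, Cd37, fell by 0.97 ± 0.24 (edgeR adjusted p = 0.0148), a share near the 12.0% of all genes called lower there. The median of the 9 was -0.58, and 2 had an unadjusted p under 0.05. The marker sums of the scramble and Gpnmb hairpin libraries did not overlap, with the hairpin lower.

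**Figure D5:**
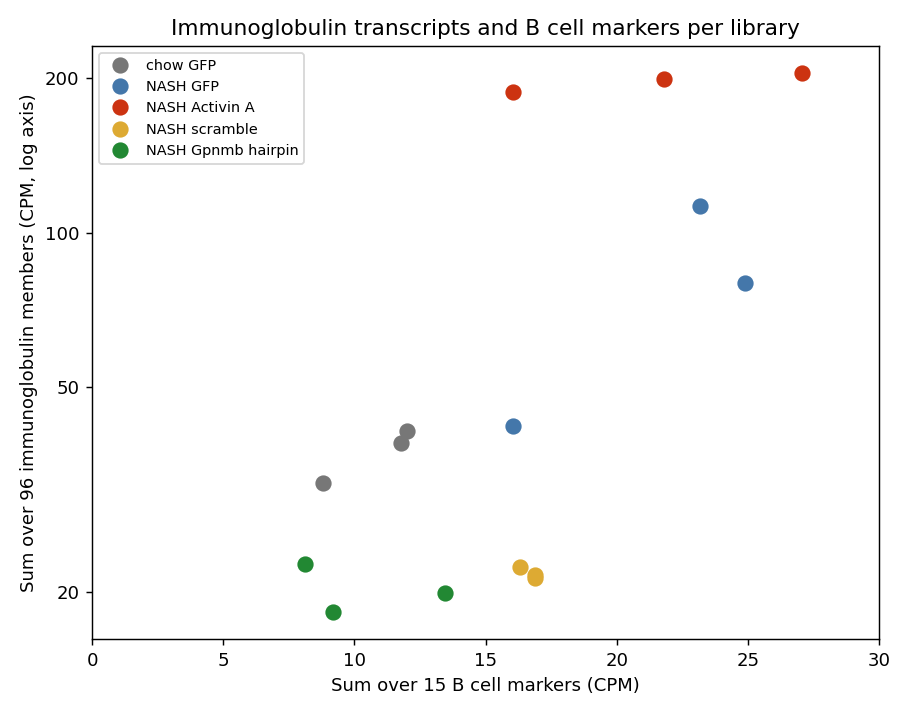
Sum over 96 immunoglobulin genes (log axis) against the sum over 15 B cell markers, both in CPM, 1 point per library, coloured by group. The scramble libraries, at 16.3 to 16.9 CPM of B cell markers, lie beside the lowest NASH GFP and Activin A libraries on that axis and far below them in immunoglobulin.

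Of 16 plasma cell markers 15 were listed, and several are also genes of hepatocytes: Sdc1 stood at 253 ± 27.2 CPM and Xbp1 at 186 ± 49.0 CPM (SD, n = 3) in NASH GFP livers. Among the less abundant ones, Mzb1, a chaperone of antibody-secreting cells, stood at 0.832 ± 0.490 CPM in NASH GFP, 1.30 ± 0.597 in Activin A and 0.394 ± 0.0707 in scramble livers, and Pou2af1, a B cell coactivator, at 0.945 ± 0.715, 2.12 ± 1.28 and 0.375 ± 0.251 CPM. Neither passed the test under Activin A (edgeR adjusted p = 0.616 and 0.362). Other markers of low abundance had another order: Prdm1, a regulator of plasma cell formation, stood at 1.06 ± 0.162 CPM in NASH GFP, 0.701 ± 0.221 in Activin A and 1.48 ± 0.151 in scramble livers, and the regulator Irf4 at 0.307 ± 0.101, 0.726 ± 0.509 and 0.693 ± 0.360 CPM. The median log2 fold change of the 13 markers tested under Activin A was -0.02. Of 12 tested on the diet, Slamf7, which macrophages and lymphocytes also carry, rose by 3.02 ± 0.39 (SE) and Derl3, Fkbp11, Creld2 and Ssr4, genes of the endoplasmic reticulum, fell. The shares of all genes called on the diet were 11.2% higher and 5.82% lower. Of 13 tested under Activin A, Slamf7 fell by 2.09 ± 0.39 (edgeR adjusted p = 0.0147). Under the Gpnmb hairpin Creld2, Sec11c and Ssr4 rose and Prdm1, Tnfrsf13b and Slamf7 fell, of 11 tested, and 0 of 14 passed between the controls, where 5 had an unadjusted p under 0.05. The shares of all genes called under the hairpin were 12.2% higher and 12.0% lower.

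Markers of lymph node or spleen stroma were low. Cxcl13, a chemokine that attracts B cells, had a level of 1.88 ± 1.22 CPM (SD, n = 3) on chow, 1.07 ± 0.488 in NASH GFP and 1.23 ± 0.314 in Activin A livers, and Cr2, a complement receptor of follicular dendritic cells and B cells, had 12 to 40 counts per group. Madcam1 had 0 counts outside the scramble group (5 counts), and Ccl21a had 0 counts in Activin A livers and 12 in scramble livers. The 5 listed stroma genes summed to 2.32 ± 1.52 CPM (SD, n = 3) in chow GFP livers, 1.89 to 2.13 CPM in Activin A libraries and 1.29 to 2.10 in NASH GFP libraries, and 0 of 2 tested passed. T and NK cell markers summed to 9.24 ± 1.18 CPM (SD, n = 3) in NASH GFP livers and 5.14 ± 1.44 in Activin A livers, with ranges that did not overlap (8.03 to 10.4 and 3.49 to 6.14). The immunoglobulin sum was higher in Activin A livers. None of the 7 T and NK cell markers tested passed (3 had an unadjusted p under 0.05), while Cd8a rose on the diet by 4.36 ± 0.72 on the log2 scale (SE, edgeR adjusted p = 0.00270). Of blood transcripts, the globin gene Hbb-bs rose on the diet by 1.85 ± 0.44 (edgeR adjusted p = 0.0175) and fell under the Gpnmb hairpin by 1.96 ± 0.27 (edgeR adjusted p = 0.000730). Hba-a1 was also called higher on the diet, and Hbb-bt, Hba-a1 and Hba-a2 lower under the hairpin. Alas2, the heme synthesis enzyme of red cell precursors, went the other way in both: it fell on the diet by 0.96 ± 0.14 (edgeR adjusted p = 0.00128) and rose under the hairpin by 0.35 ± 0.11 (edgeR adjusted p = 0.0484). The sum of the 5 blood genes was 161 ± 18.7 CPM in chow GFP and 122 ± 24.8 in NASH GFP livers. Most of this sum was Alas2, at 146 and 72.9 CPM, whereas Hbb-bs had 7.83 and 27.3 CPM. The level of Hbb-bs was 27.3 CPM in NASH GFP, 14.7 in Activin A and 40.1 in scramble livers, and 0 of 4 and 0 of 5 blood genes passed in the Activin A and control comparisons. Of 4 hepatocyte genes, Ttr and Serpina1a fell on the diet, Ttr rose under Activin A and Serpina1a under the Gpnmb hairpin. The part of cell composition in the immunoglobulin results was not tested.

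Genes that bind or carry immunoglobulin changed in other directions. On the diet 4 of 8 tested rose: Fcgr1 (1.86 ± 0.27), Fcgr3 (1.74 ± 0.20) and Fcgr4 (2.30 ± 0.36), activating receptors for IgG on myeloid cells, and Fcer1g (1.80 ± 0.24), the signalling chain they share (log2 fold change with SE). The same 4 fell under Activin A, against the same NASH GFP libraries, by 1.22 ± 0.21, 1.14 ± 0.16, 1.15 ± 0.23 and 1.05 ± 0.17, and under the Gpnmb hairpin, by 1.34 ± 0.23, 0.80 ± 0.16, 0.74 ± 0.16 and 1.20 ± 0.19. The largest edgeR adjusted p of these 12 calls was that of Fcgr4 under Activin A (edgeR adjusted p = 0.0182). Of all genes tested, 11.2% were called higher on the diet, 3.86% lower under Activin A and 12.0% lower under the hairpin. The inhibitory receptor Fcgr2b and the neonatal receptor Fcgrt, which protects IgG from breakdown, passed in no comparison.

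Pigr, the receptor that carries polymeric IgA and IgM across epithelia, fell on the diet by 0.99 ± 0.24 (SE, edgeR adjusted p = 0.0181) and, against the same NASH GFP libraries, under Activin A by 1.36 ± 0.25 (edgeR adjusted p = 0.0139). Its level was 1680 ± 187 CPM (SD, n = 3) on chow with GFP, 823 ± 285 in NASH GFP and 323 ± 86.6 in Activin A livers. Between the hairpin groups it rose by 0.44 ± 0.14 (edgeR adjusted p = 0.0459), from 911 ± 132 to 1219 ± 250 CPM. None of the 9 receptor and transport genes tested passed between scramble and NASH GFP livers, where Jchain and Igkc fell (2 had an unadjusted p under 0.05).

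Genes of B cell survival and recruitment passed in few cases. The chemokine receptor Cxcr4 rose on the diet by 2.63 ± 0.49 (SE, edgeR adjusted p = 0.00497), 1 of 6 tested, against 11.2% of all genes. Under the Gpnmb hairpin Cxcr4 fell by 1.21 ± 0.29 and Tnfrsf13b, the receptor TACI, by 1.96 ± 0.55, and the chemokine gene Cxcl12 rose by 0.32 ± 0.07, of 8 tested. Among all genes 12.0% were called lower there and 12.2% higher. Under Activin A and between the controls 0 of 8 passed, and 0 had an unadjusted p under 0.05 in either. Of the genes for rearrangement and class switching, 2 could be tested in each comparison. Dntt, the terminal transferase of rearrangement, rose on the diet by 2.32 ± 0.57 (edgeR adjusted p = 0.0199), and the uracil glycosylase Ung rose under the Gpnmb hairpin by 0.73 ± 0.19 (edgeR adjusted p = 0.0169). Neither passed under Activin A.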

How the data were processed

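Whole-number counts per gene and library were deposited by the authors in 3 tables, 1 per comparison, not normalized, per the file headers. Gene lengths and positions came from other columns of the deposited tables. RNA was purified on a column and made into stranded poly(A) libraries, per the labels' protocols. The build was GRCm38 (mm10), per the submitters' processing notes. Aligner, counting program and strand setting are not given in the sources that were used here. Tables were joined by gene identifier with missing genes set to 0. Genes in only 1 of the 2 tables that hold NASH GFP libraries had at most 1 count in any of those libraries. The main test was edgeR 4.0.16 (R 4.3.3): filterByExpr (minimum count 10), TMM, the quasi-likelihood test on the groups compared, Benjamini-Hochberg adjustment over all genes tested, threshold 0.05, two-sided. The SE is the size of the log2 fold change divided by the square root of F. The script was tested on simulated data. Alternatives were DESeq2 1.42.0, limma voom 3.58.1, library size alone, no count filter, a replicate block, 1 fit of all libraries, and leaving out each library. Identity of V segments came from global alignments in Biopython 1.88. Genes and marker lists were chosen with earlier results of these data known. Named genes were Jchain, all constant genes, the 10 V segments with the highest mean level, the leading V segment of a library, called genes, and from each marker list the called genes or the 2 most abundant. Other names were chosen after their values were seen. Some listed genes are not reported here.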

Additional observations from a re-analysis of the deposited data

How the results depend on the processing

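Counts of genes called among the 96 depended on the test. On the diet (main 1), DESeq2 and library size alone called 2, no filter and a fit of all 15 libraries 6, limma voom and the replicate block 0, and leaving out a library gave 0 to 2. Under Activin A (main 3), DESeq2 called 9, no filter 16, and leaving out a library gave 1 (without the third Activin A library) to 12. Between the controls (main 3), DESeq2, no filter and the fit of all libraries called 5, library size alone and limma voom 0, and leaving out a library gave 0 to 5. Over all 5 groups (main 14), no filter gave 31 and leaving out a library 14 to 24. The Gpnmb hairpin gave 0 in every fit run. Same-numbered libraries correlated at -0.150 to 0.104 in their deviations from group means, which shows no clear pairing by number but cannot exclude one. The replicate block called 3 genes under Activin A and 4 between the controls.

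Some signs reversed, none of them in a comparison where the gene was called. On the diet Ighg2c ranged from -0.23 to 1.43 when a library was left out. Under Activin A, Igkv5-39 ranged from -0.080 to 0.56, Igha from -0.27 to 0.80 and Ighd from -0.21 to 0.34, and Ighd was -0.068 with library size alone, -0.10 with limma voom and -0.031 with the replicate block. Igkc under the Gpnmb hairpin ranged from -0.14 to 0.26 and was -0.027 with library size alone, and Ighd between the controls ranged from -0.30 to 0.27. Summed levels moved to 32.5 CPM (chow GFP) and 23.3 CPM (scramble) with library size alone, and to 30.9 (chow GFP), 159.9 (Activin A), 19.0 (scramble) and 17.6 CPM (Gpnmb hairpin) with constant genes and Jchain alone. Leaving out a library moved the NASH GFP sum between 60.8 and 96.2 CPM. With library size alone the median change over all genes was 0.24 on the diet and -0.11 under the hairpin.

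Between the controls, 3 to 2034 of all genes (main 49) were called when a library was left out, 735 by DESeq2, 576 without the filter, 116 in the fit of all libraries and 23 with library size alone. The fit of all libraries called 4500 genes on the diet (main 2445, 1597 with the replicate block) and 1880 under the Gpnmb hairpin (main 3601). Under Activin A (main 806), DESeq2 called 1258 and no filter 1253. Depth limits the single segments: 27 of 79 V and 0 of 5 J segments had at least 30 counts in total.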
